A study of Mus musculus with 4 samples.

Results

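Arterial endothelial cells were taken from droplet-based 3′ RNA-seq of single CD45-negative thymic cells of mice aged 6 months. The mice were of the C57BL/6 strain and untreated, and 10 to 15 thymi were pooled for the preparation. Libraries WT 1 and WT 2 came from wild-type mice, and libraries Z/Z 1 and Z/Z 2 from mice homozygous for the LacZ allele of Foxn1. That allele is hypomorphic, and Foxn1 is a transcription factor of thymic epithelial cells, so the arterial endothelium was examined here as a neighbour of the altered cells. The labels do not say whether the libraries of a genotype came from separate pools of mice, so p-values measure the spread between libraries, which may be technical.

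The cells were selected by their own transcripts. A cell was kept with more than 1000 detected genes and under 20% mitochondrial transcripts, at least 2 UMIs (unique molecules) of Pecam1, Cdh5 and Kdr together, and no UMI of Epcam, Pdgfra or Ptprc. It was called arterial when Sema3g, Gja5, Gkn3 and Stmn2 together gave at least 2 UMIs and more than the capillary sum (Gpihbp1, Cd36 and Car4) and the venous sum (Selp, Ackr1 and Vwf). Of 13981 called cells, 1366 passed as endothelial and 71 of these as arterial. The capillary and venous classes were chosen in the same way by their own sums and held 1009 and 195 cells. Because the transcripts of these cells chose the classes, differences between arterial, capillary and venous cells are given as a description with no test.

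Arteries carry blood under high pressure into the thymus, and their endothelium is specified by Notch signalling, rests on an elastic lamina, and is joined by connexin channels. Capillaries exchange nutrients such as lipids, and post-capillary venules admit and release lymphocytes. Sema3g is a secreted semaphorin, Gja5 encodes connexin 40, Gkn3 a secreted gastrokine and Stmn2 a regulator of microtubules.

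The numbers of arterial cells were 1 of 91 endothelial cells in WT 1, 2 of 20 in WT 2, 37 of 698 in Z/Z 1 and 31 of 557 in Z/Z 2. The arterial share was 1.10% in WT 1 (exact 95% binomial interval 0.0278% to 5.97%) and 10.0% in WT 2 (1.23% to 31.7%). The Z/Z 1 share was 5.30% (3.76% to 7.23%) and the Z/Z 2 share 5.57% (3.81% to 7.81%). The Z/Z shares lay between the WT shares. For WT the mean was 5.55% ± 6.29 (SD, n = 2). For Z/Z it was 5.43% ± 0.187 (SD, n = 2), a difference of -0.116 percentage points with an exact two-sided permutation p of 1, where the smallest p that 2 against 2 libraries allow is 0.333. The intervals cover counting error only. The sign of the difference turned in several alternatives, and it was 4.33 points without WT 2 and -4.57 points without WT 1.

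The arterial sums held 13530 and 16800 UMIs in WT 1 and WT 2 against 313189 and 284332 in Z/Z 1 and Z/Z 2, so that 1 UMI was worth 73.9 and 59.5 CPM (counts scaled to a common total of 1e6) in the WT sums and 3.19 and 3.52 CPM in the Z/Z sums. CPM here are the UMIs of a gene summed over the cells of a class and scaled to the class total, without ribosomal protein and haemoglobin genes. Foxn1 had 0 UMIs in arterial cells of every library. In kept cells with at least 2 Epcam UMIs it had 85.0, 94.3, 47.6 and 63.4 UMIs per 1e6 in WT 1, WT 2, Z/Z 1 and Z/Z 2. These were scaled to the UMIs of all genes, with ribosomal protein and haemoglobin genes included. Over all kept cells the Y-linked Ddx3y had 957 to 5951 UMIs per library and Xist 3 to 24, where the labels give the sex both as male and as female. Libraries shared 203 to 256 of their called barcodes with another library, and 2 arterial cells of Z/Z 1 had such a barcode.

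The gate genes differed in how many arterial cells carried them. Sema3g had at least 1 UMI in 33 of 37 arterial cells of Z/Z 1 and 26 of 31 of Z/Z 2, and Stmn2 in 32 and 26. Gja5 was seen in 14 and 16 cells, and Gkn3 in 13 and 22. All 4 genes were found together in 4 and 9 cells, 3 of them in 13 and 12, and a single one in 3 and 2. The arterial gate sum in Z/Z 1 had a median of 8 UMIs, with cells from 2 to 36, and in Z/Z 2 one of 13, with cells from 2 to 43, while the 3 WT cells had 17, 10 and 18. Gja5 UMIs numbered 3, 6 and 13 in these WT cells, while the median per cell was 0 for Z/Z 1 and 1 for Z/Z 2. Because Gja5 helped to select the cells and WT held only 3, these values are not read as a difference between genotypes. Capillary-gate sums of the WT cells were 11, 7 and 13 UMIs, which their arterial sums had to exceed. At the threshold, 3 cells of Z/Z 1 and 1 of Z/Z 2 had exactly 2 arterial UMIs, and 1 and 2 further cells had 1 UMI as the largest sum and stayed outside. A larger number of endothelial cells had 2 or more arterial UMIs but a capillary or venous sum at least as high, 19, 4, 84 and 54 in WT 1, WT 2, Z/Z 1 and Z/Z 2.

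Genes that the gate did not use were read next. All 11 general endothelial genes listed, such as Tie1, Cldn5 and Erg, were present in the Z/Z arterial sums. The gate required endothelial UMIs, so their presence was in part set by the selection. It does not tell arterial from other endothelial cells. Transcripts of other cells were present too. Smooth muscle markers (Acta2, Myh11, Tagln, Myl9, Cnn1 and Des) had UMIs for 4, 0, 5 and 5 of 6 genes, with summed levels of 1699.9, 0, 609.9 and 236 CPM in WT 1, WT 2, Z/Z 1 and Z/Z 2, and Cnn1 was at 0 in all. Pericyte markers had UMIs for 2, 1, 5 and 3 of 6 genes and sums of 1699.9, 59.5, 466 and 80.9 CPM, with Kcnj8 at 0 in all. Fibroblast markers summed to 73.9, 59.5, 635 and 106 CPM (1, 1, 6 and 5 of 6 genes). Epithelial markers summed to 0, 119, 342 and 66.8 CPM (0, 1, 3 and 3 of 6), with Krt14, Prss16 and Psmb11 at 0. Lymphatic markers summed to 0, 59.5, 76.6 and 80.9 CPM (0, 1, 3 and 3 of 6), with Lyve1 and Mmrn1 at 0 in all. Thymocyte markers summed to 73.9, 0, 3.19 and 31.7 CPM (1, 0, 1 and 4 of 9) and myeloid markers to 73.9, 0, 6.39 and 10.6 CPM (1, 0, 2 and 1 of 6), with Cd3d, Cd8a, Lyz2 and C1qa at 0 in all.

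A few arterial cells held most of the smooth muscle, pericyte and fibroblast UMIs. The only arterial cell of WT 1 had 23 smooth muscle and 23 pericyte UMIs, and 1 cell of Z/Z 1 had 164 fibroblast and 93 epithelial UMIs. Cells with at least 3 UMIs of smooth muscle or pericyte markers, a barcode shared with another library or one of the highest doublet scores numbered 1, 0, 6 and 4. Without them the smooth muscle sum was 34.4 CPM in Z/Z 1 and 25.6 CPM in Z/Z 2. The share of arterial UMIs that resembled the RNA of empty droplets, estimated from epithelial and thymocyte markers, was 13.2% in Z/Z 1, where 93 of the 108 marker UMIs came from that 1 cell, and 2.17% in Z/Z 2. In WT it rested on 1 and 2 UMIs. With this RNA subtracted, 162 genes were higher and 161 lower in arterial cells by the count given next, in place of 144 each, 0 genes differed between genotypes, and 43 and 12 genes differed in their response from capillary and venous cells, in place of 29 and 17.

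Genes of arterial identity were high in arterial cells of both Z/Z libraries. With 5 CPM added to each level, a gene was counted as higher when it exceeded both the capillary and the venous cells at least 2-fold in each Z/Z library. This held for 144 of 6235 genes with a mean of 20 CPM or more over the 3 classes of the Z/Z libraries (2.31%), and the opposite for 144 as well (2.31%). Of 20 arterial identity genes 18 had that level, and 9 were higher and 0 lower than both classes. Their median log2 ratio over capillary cells was 1.20 in Z/Z 1 and 1.58 in Z/Z 2, where the medians over all genes were -0.04 and -0.01. Over venous cells it was 2.20 and 2.73, against 0.11 and 0.14 for all genes. The list was drawn up for arterial expression, with earlier results of these data known, so its direction is no independent evidence.

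Extracellular proteins had the highest levels among the 9. Mgp, an inhibitor of calcification and of bone morphogenetic protein signalling (chr6:136872435-136875823, GRCm38), had 3068 and 4410.3 CPM in arterial cells of Z/Z 1 and Z/Z 2, 237 and 272 CPM in capillary cells and 315 and 523 CPM in venous cells. Its lowest arterial level was above every capillary and venous level. Clu, an extracellular chaperone, had 1702 and 1843 CPM against 177 and 209 in capillary and 619 and 507 in venous cells. Fbln5, which helps to assemble elastic fibres, had 520.5 and 703 CPM in arterial cells, and at most 93.1 CPM in either other class. Ltbp4, which binds latent TGF beta and fibulin 5, had 702 and 1027 CPM in arterial cells, with 251 to 383 CPM in the others. These 4 genes had UMIs in most arterial cells, Mgp in 28 and 26 cells, Clu in 35 and 30, Fbln5 in 33 and 30 and Ltbp4 in 34 and 30.

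Signalling and membrane genes among the 9 had lower levels. Vegfc, a growth factor for lymphatic vessels, had 428 and 415 CPM in arterial cells, 77.0 and 36.8 in capillary and 12.6 and 33.7 in venous cells. The kinase gene Bmx (chrX:164192842-164258193) had 195 and 267 CPM against 14.2 and 12.1 in capillary and 4.21 and 25.2 in venous cells. Gja4, encoding connexin 37, had 192 and 218 CPM against 32.5 and 35.2 in capillary and 8.43 and 8.41 in venous cells. In all 3 genes the arterial levels exceeded every other level. Alpl, alkaline phosphatase, stood at 338 and 267 CPM, with 54.0 and 48.5 in capillary cells and 0 and 2.10 in venous cells. Cytl1, a small secreted protein (chr5:37735519-37739820), had 466 and 362 CPM in arterial cells, 0 UMIs in capillary cells, and 5.27 and 42.1 CPM in venous cells. Cytl1 was carried by 12 and 10 of the arterial cells, a smaller number than Alpl with 29 and 21.

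Some genes associated with arteries did not stand 2-fold above capillary cells in both libraries. Efnb2, the arterial ephrin ligand, had 147 and 229 CPM in arterial cells, 126 and 96.6 in capillary cells and 49.5 and 18.9 in venous cells, so the capillary and arterial levels of Z/Z 1 lay close together. Sox17, a transcription factor of arterial specification, had 214 and 200.5 CPM against 251 and 221 in capillary cells and 127 and 96.8 in venous cells. Nrp1, a coreceptor for VEGF and semaphorins, had 316 and 478 CPM against 828 and 808 in capillary cells. Its arterial levels were the lower ones in both libraries. Unc5b, a netrin receptor gene, had 44.7 and 24.6 CPM against 45.9 and 37.2 in capillary cells and 4.21 and 4.21 in venous cells. The chemokine receptor gene Cxcr4 had 0 UMIs in arterial cells of all libraries, and it and Hey2 were under a mean of 20 CPM.

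**Figure D1:**
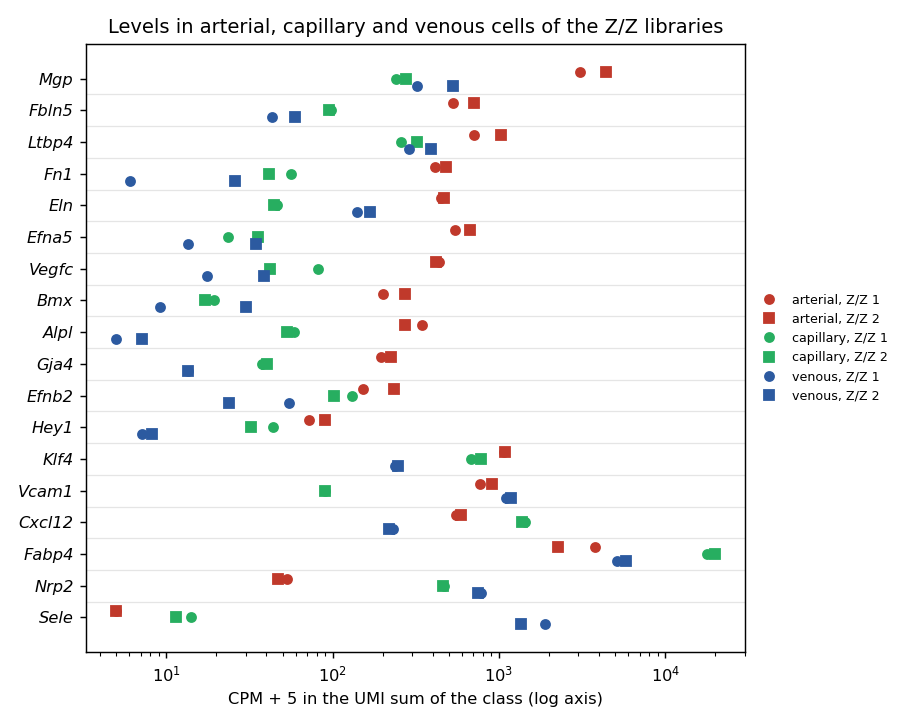
Levels of 18 genes in the UMI sums of arterial (red), capillary (green) and venous (blue) cells of Z/Z 1 (circles) and Z/Z 2 (squares), as CPM + 5 on a logarithmic axis. Arterial levels lie to the right of both other classes for the genes from Mgp to Gja4, come close to the capillary levels for Efnb2, and lie to the left of both for Fabp4, Nrp2 and Sele.

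Notch pathway genes stood further above venous than above capillary cells. Of 16 members 12 had 20 CPM or more, and 2 were higher than both classes and 0 lower, where 2.31% of all genes were in each direction. Higher than capillary cells were 3 members, where 3.9% of all genes were, and higher than venous cells 6, where 6.93% were. The 2 were ligand genes. Jag1 had 172 and 80.9 CPM against 34.4 and 25.9 in capillary and 35.8 and 30.5 in venous cells. Jag2 had 95.8 and 123 CPM against 44.3 and 34.4 in capillary and 4.21 and 9.47 in venous cells. Dll4, a ligand of arterial and sprouting endothelium, had 92.6 and 123 CPM, close to the capillary 101 and 80.5, with 23.2 and 17.9 in venous cells. Among receptors, Notch4 had 89.4 and 98.5 CPM, 52.9 and 58.2 in capillary cells and 11.6 and 16.8 in venous cells, and Notch1 had 255 and 309 CPM against 154 to 239.8 in the others. The target gene Hey1 had 67.1 and 84.4 CPM, 38.7 and 27.1 in capillary cells and 2.11 and 3.16 in venous cells. Hey1 and Notch4 were at least 2-fold above venous cells in each library, and Hey1 was 2-fold above capillary cells in Z/Z 2 but not in Z/Z 1. Rbpj, encoding the DNA-binding partner of the receptors, had 134 and 77.4 CPM against 75.4 to 103 in the others.

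Among elastic fibre and basement membrane genes, 18 of 20 members had the level, with 6 higher and 4 lower than both classes and 8 neither. Of all genes at this level 2.31% were higher and 2.31% lower. Eln, which encodes elastin (chr5:134702593-134747323), had 444 and 464 CPM against 41.1 and 39.2 in capillary and 136 and 163 in venous cells. Fbn1, fibrillin 1, had 195 and 239 CPM against 43.8 and 43.3 in capillary and 76.9 and 78.9 in venous cells. Lox, which crosslinks elastin, had 41.5 and 73.9 CPM against at most 7.37 CPM, and Mgp, Fbln5 and Ltbp4 completed the 6. The 4 lower genes belong to the basement membrane. Col4a2, a collagen IV chain, had 166 and 218 CPM against 785 and 844 in capillary and 565 and 591 in venous cells. Nid1, nidogen 1, had 47.9 and 28.1 CPM against 147 to 192, and Lamb1, a laminin chain, 6.39 and 0 CPM against 17.9 to 47.5. Hspg2, perlecan, had 109 and 109 CPM against 233 to 328. Another laminin chain gene, Lama5, lay on the other side with 131 and 197 CPM against 57.9 to 74.4.

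Among 16 genes of flow response and vessel tone, 15 had the level, 4 were higher and 1 was lower. For all genes both shares were 2.31%. The nitric oxide synthase gene Nos3 had 332 and 302 CPM against 72.6 to 104 in the other classes. Edn1, encoding the vasoconstrictor endothelin 1, had 393 and 696 CPM against 61.0 to 174, and Ace, which generates angiotensin II, had 236 and 295 CPM against 36.4 to 78.0. The fourth was Gja4. The flow-induced factor gene Klf4 had 1069.6 and 1079.7 CPM, 677 and 773 in capillary cells and 231 and 242 in venous cells. Klf2 had 1526 and 1252 CPM, 797 and 739.9 in capillary cells and 238 and 217 in venous cells. Both thus followed the order arterial, capillary, venous in each library. Gja1, connexin 43, was the lower member, with 156 and 179 CPM against 519 to 845.

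Of the genes through which vessels signal to thymocytes and progenitors, 15 of 20 had the level, 2 were higher and 2 lower. The share over all genes was 2.31% in each direction. The higher ones were Vegfc and Ccl19, a chemokine gene whose 195 and 38.7 CPM came from 3 and 1 cells. Without the cells set aside above, Ccl19 had 10.9 and 8.98 CPM in Z/Z 1 cells with and without Gkn3 UMIs and 0 in Z/Z 2, so its place rested on those cells. Cxcl12, which attracts progenitors, had 549 and 584 CPM in arterial cells, below 1427 and 1376 in capillary cells and above 227 and 212 in venous cells. Kitl, stem cell factor, had 1118 and 1101 CPM against 857 to 1338 in the other classes. Vcam1, an adhesion molecule for lymphocytes, had 759.9 and 900.4 CPM, 85.4 and 85.3 in capillary cells and 1093 and 1176 in venous cells, so its arterial level was on the venous side. Sele, E-selectin, had 0 UMIs in arterial cells and 1875 and 1357 CPM in venous cells. Angpt2, a ligand of the Tie2 receptor, was the other lower gene with 6.39 and 0 CPM against 31.9 to 168.

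Capillary and venous programmes were low in arterial cells. Of 12 capillary genes 9 were lower than in capillary cells (4.67% of all genes were), and of 12 venous genes 8 were lower than in venous cells (6.42% were). Since other capillary and venous genes entered the gate, this direction was in part set by the selection. Fabp4, a fatty acid carrier, had 3749 and 2244 CPM against 17856 and 19954 in capillary cells, and Lpl, lipoprotein lipase, had 19.2 and 3.52 CPM against 428 and 547. Of 12 lipid handling genes 9 had the level and 6 were lower than in capillary cells. Nr2f2, the transcription factor of venous fate, had 19.2 and 31.7 CPM against 139 and 227 in venous cells. Nrp2, the other neuropilin, had 47.9 and 42.2 CPM against 461 and 457 in capillary and 776 and 747 in venous cells.

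In 5 further lists few genes stood apart from both classes, where 2.31% of all genes were higher than both and 2.31% lower. None of 20 genes of antigen presentation and interferon response, 16 immediate early genes or 10 genes of metal and glucocorticoid response was 2-fold from both classes in both libraries. Of the 16 immediate early genes 12 were at least 2-fold above venous cells in both libraries, where 6.93% of all genes were. Fos, for example, had 2896 and 2395 CPM in arterial, 2131 and 2157 in capillary and 877 and 791 in venous cells. Of 17 genes of VEGF and TGF beta signalling 15 had the level, and 1, Vegfa, was higher with 57.5 and 52.8 CPM against 5.27 to 19.8. The lower genes were Nrp2 and Aplnr, the apelin receptor gene with 3.19 and 0 CPM against 16.9 to 48.0. Of 12 semaphorin pathway genes 11 had the level, 0 were higher and 1, Nrp2, was lower.

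Ranking all genes by the smaller of the ratios over capillary and venous cells named further arterial genes. When the mean of all 4 libraries was ranked, 10 of the 15 highest genes had under 10 UMIs in each Z/Z arterial sum and rested on the 3 WT cells, such as Gucy2c with 0, 536, 0 and 0 CPM in WT 1, WT 2, Z/Z 1 and Z/Z 2. The ranking was therefore repeated on the Z/Z libraries alone, a choice made after seeing the data, and 4 of 15 genes were shared. These were Dkk2, Cytl1, Efna5 and Igf2. Dkk2, a secreted modulator of Wnt signalling (chr3:132085292-132180304), had 140.5 and 211 CPM in arterial cells and at most 3.22 CPM elsewhere in the Z/Z libraries. Efna5, an ephrin ligand (chr17:62604184-62881317), had 536 and 665 CPM against 8.43 to 30.7, and the growth factor gene Igf2 had 329 and 253 CPM against 5.27 to 11.0. Each of these genes was carried by many cells, Dkk2 by 13 and 14, Efna5 by 21 and 25 and Igf2 by 19 and 17.

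The other genes of the Z/Z ranking were Aff2, S100a4, Bmx, Apba1, Slc8a1, Pcsk5, Fn1, Mgp, Specc1, Ptprj and Nkain4. Fn1, fibronectin, had 409 and 478 CPM against 1.05 to 51.3, and the sodium-calcium exchanger gene Slc8a1 had 338 and 362 CPM against 2.11 to 30.7. S100a4, a calcium-binding protein gene, had 166 and 278 CPM against 1.05 to 14.6, and Pcsk5, a proprotein convertase gene, had 370.4 and 647 CPM against 31.5 to 56.8. Aff2 and Nkain4 rested on few cells, 1 and 2 for Aff2 and 1 and 0 for Nkain4. Of the lowest genes, 6 of 10 were shared by both rankings. Among these, Aqp1, a water channel, had 118 and 7.03 CPM against 860.3 and 1370.3 in capillary and 1769 and 2580.2 in venous cells. The interferon-induced chemokine gene Cxcl9 had 3.19 and 35.2 CPM against 521 to 1139, and Ccdc85a 6.39 and 0 CPM against 73.7 to 446.

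The arterial cells were next divided by whether a Gkn3 UMI was detected. Gkn3 (chr6:87383256-87388935) had at least 1 UMI in 13 of 37 arterial cells of Z/Z 1 and 22 of 31 of Z/Z 2, and in 7 and 16 cells when each cell was thinned to 2000 UMIs. In capillary cells the counts were 3 of 534 and 6 of 399, and in venous cells 0 of 82, which allows a share of cells with a UMI of up to 3.66%, and 1 of 90. In the WT libraries, with 3 arterial cells, Gkn3 was also found in 2 of 63 and 2 of 13 capillary cells. The median UMIs per cell were 7021 and 8775 in arterial cells, 5413.5 and 4957 in capillary cells and 10732.5 and 8682 in venous cells. Gkn3 is a gene of the arterial gate, so its higher share in arterial cells than in the other classes was set by the selection. The division was chosen after seeing the data, so it is described with no test. Cells without Gkn3 had to pass the gate through Sema3g, Gja5 or Stmn2. Since thinning lowered the number of cells with a Gkn3 UMI, a cell without one may still have carried the transcript.

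**Figure D2:**
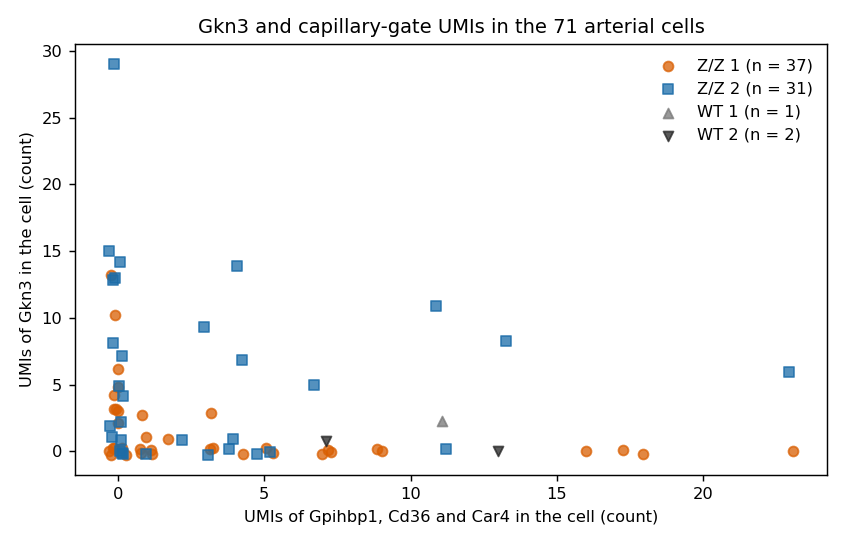
UMIs of Gkn3 against the summed UMIs of the capillary gate genes Gpihbp1, Cd36 and Car4 in each of the 71 arterial cells, shifted at random by up to 0.3 so that points do not hide each other. The Z/Z 1 cells with the most capillary-gate UMIs lie at 0 on the Gkn3 axis, whereas the Z/Z 2 cell with the most, 23, has 6 Gkn3 UMIs, and the highest Gkn3 count, 29, is in a Z/Z 2 cell with no capillary-gate UMI.

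The UMIs of the other gates, which the selection used as well, are given as a description. Capillary-gate UMIs were present in 4 of 13 Gkn3-bearing cells of Z/Z 1 and 9 of 22 of Z/Z 2, and in 18 of 24 and 6 of 9 cells without Gkn3. Venous-gate UMIs were present in 7 of 13 and 16 of 22 Gkn3-bearing cells and in 6 of 24 and 5 of 9 others. Vwf, von Willebrand factor, gave most of the venous-gate UMIs in Gkn3-bearing cells, with 228 CPM against 31.6 CPM in Z/Z 1 and 319 CPM against 75.1 CPM in Z/Z 2 in cells with and without Gkn3. Median depth was similar in Z/Z 1, with 7136 and 6708 UMIs, and lower with Gkn3 in Z/Z 2, with 8133 and 9568. By summed UMIs the libraries differed for the capillary gate, with 7 UMIs in Gkn3-bearing cells and 137 in the others in Z/Z 1, and 71 and 29 in Z/Z 2. Cd36 accordingly had 76.1 CPM against 466 CPM in Z/Z 1 and 324 CPM against 247 CPM in Z/Z 2.

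Of 3671 genes with a mean of 50 CPM or more in arterial cells, 42 were at least 2-fold higher (1.14%) and 67 at least 2-fold lower (1.83%) in Gkn3-bearing cells of both libraries, with and without the cells set aside above. The shares expected for groups of so few cells divided without regard to Gkn3 were not computed, so these counts have no reference. Gkn3 was left out of these counts, but other genes of the selection were not. The gate genes Vwf and Gja5 were among the higher and Kdr among the lower, and these 3 are not read as results. Cytl1 had 1468 CPM against 49.7 CPM in Z/Z 1 and 539 CPM against 0 CPM in Z/Z 2. It was carried by 8 of 13 and 10 of 22 Gkn3-bearing cells, and by 4 of 24 and 0 of 9 others. Efna5 had 1294 CPM against 222 CPM and 884 CPM against 215 CPM, Bmx 435 CPM against 94.9 CPM and 345 CPM against 107 CPM, and Eln 1250.3 CPM against 108 CPM and 570.2 CPM against 247 CPM. Bgn, the proteoglycan biglycan, had 413 CPM against 104 CPM and 152 CPM against 32.2 CPM, and Ntn1, netrin 1, 174 CPM against 27.1 CPM and 94.2 CPM against 10.7 CPM. By summed level all 6 genes were higher in Gkn3-bearing cells of each library. By cells with a UMI, Efna5, Bmx and Eln were also common in the others. In Z/Z 1 Efna5 was carried by 8 of 13 Gkn3-bearing and 13 of 24 other cells, Bmx by 8 and 11, and Eln by 9 and 13. In Z/Z 2 these genes were carried by 20, 18 and 17 of 22 Gkn3-bearing cells and by 5, 4 and 5 of 9 others.

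Genes on the other side included Gja1, with 21.7 CPM against 212 CPM in Z/Z 1 and 88.9 CPM against 365 CPM in Z/Z 2. The taurine transporter gene Slc6a6 had 207 CPM against 642 CPM and 146 CPM against 751 CPM, and Tgfb2, a TGF beta ligand, 21.7 CPM against 118 CPM and 88.9 CPM against 268 CPM. Mt1, metallothionein 1, had 250.1 CPM against 2292 CPM and 262 CPM against 966 CPM. The capillary gene Btnl9 had 0 CPM against 72.3 CPM and 36.6 CPM against 150.3 CPM. Other genes of the capillary list were mixed. Rgcc was also lower, with 109 CPM against 384 CPM and 78.5 CPM against 215 CPM. Fabp4 had 304 CPM against 5181 CPM in Z/Z 1 but 2296 CPM against 2136 CPM in Z/Z 2. Timp4 had 10.9 CPM against 54.2 CPM and 94.2 CPM against 32.2 CPM, and Sparcl1 826 CPM against 402 CPM and 1187 CPM against 1546 CPM. Genes shared by both kinds of cell included Alpl, with 381 CPM against 321 CPM and 288 CPM against 225 CPM, Fbln5, with 576 CPM against 497 CPM and 811 CPM against 483 CPM, and Gja4, with 141 CPM against 212 CPM and 209 CPM against 236 CPM. Cells without Gkn3 thus also carried arterial genes that the gate did not use.

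**Figure D3:**
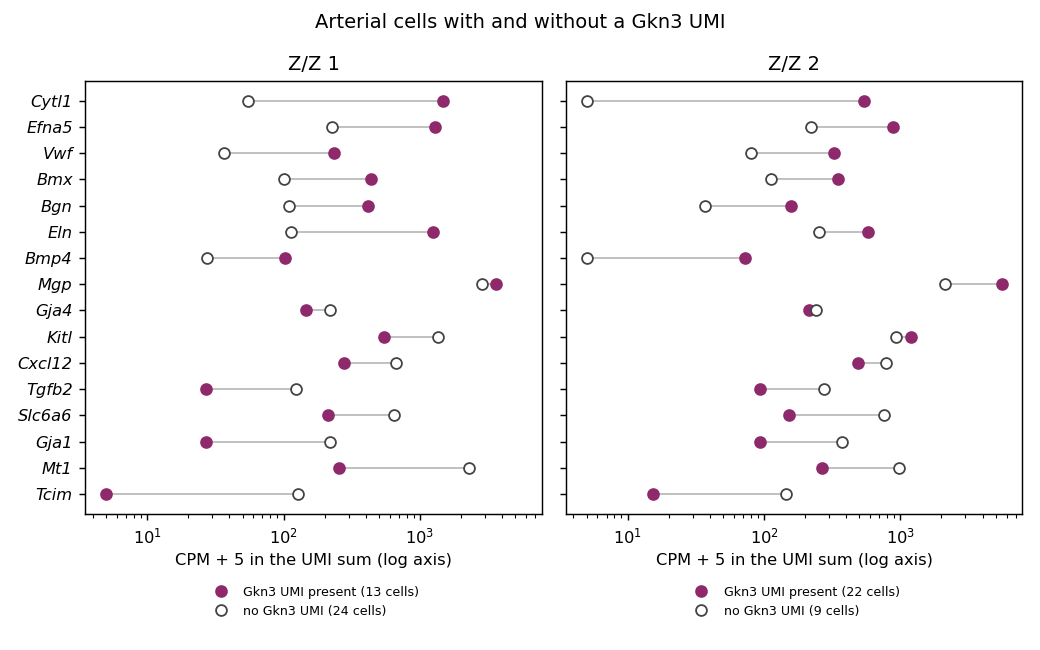
Levels of 16 genes, as CPM + 5 on a logarithmic axis, in the UMI sums of arterial cells with a Gkn3 UMI (filled circles) and without one (open circles), for Z/Z 1 (13 and 24 cells) and Z/Z 2 (22 and 9 cells), with a line joining the pair. Genes from Cytl1 to Mgp lie further right in the filled circles of both libraries, Tgfb2, Slc6a6, Gja1, Mt1 and Tcim in the open circles, and Kitl changes sides. Vwf is a gene of the venous gate, so its levels were affected by the selection.

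Because Cytl1, Bmx and Efna5 had higher summed levels in Gkn3-bearing cells, their upstream sequences are shown with that of Gkn3. They are the 250 bases before the RefSeq start site on GRCm38.p6, read 5′ to 3′ on the gene's strand: Gkn3 chr6:87388936-87389185 (minus), Cytl1 chr5:37735269-37735518 (plus), Bmx chrX:164258194-164258443 (minus) and Efna5 chr17:62881318-62881567 (minus). Capitals mark matches on either strand to TGGGAA (RBPJ), CAGGAA (ETS factors), ACAATG (SOX factors) or CACCC (KLF2 and KLF4).
Gkn3: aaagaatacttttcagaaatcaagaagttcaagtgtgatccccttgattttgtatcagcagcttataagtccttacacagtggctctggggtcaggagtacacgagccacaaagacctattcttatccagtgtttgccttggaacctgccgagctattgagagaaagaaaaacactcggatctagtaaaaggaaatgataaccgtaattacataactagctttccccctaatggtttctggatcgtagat
Cytl1: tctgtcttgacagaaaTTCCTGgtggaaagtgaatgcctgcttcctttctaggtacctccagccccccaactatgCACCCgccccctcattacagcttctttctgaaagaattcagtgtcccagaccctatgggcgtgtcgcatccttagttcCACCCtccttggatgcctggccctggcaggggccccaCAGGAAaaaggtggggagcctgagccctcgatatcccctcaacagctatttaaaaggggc
Bmx: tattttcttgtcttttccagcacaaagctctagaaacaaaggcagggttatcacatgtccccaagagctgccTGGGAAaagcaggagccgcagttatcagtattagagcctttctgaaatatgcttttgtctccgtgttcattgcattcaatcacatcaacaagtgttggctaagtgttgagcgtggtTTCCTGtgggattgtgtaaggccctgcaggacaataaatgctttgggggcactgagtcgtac
Efna5: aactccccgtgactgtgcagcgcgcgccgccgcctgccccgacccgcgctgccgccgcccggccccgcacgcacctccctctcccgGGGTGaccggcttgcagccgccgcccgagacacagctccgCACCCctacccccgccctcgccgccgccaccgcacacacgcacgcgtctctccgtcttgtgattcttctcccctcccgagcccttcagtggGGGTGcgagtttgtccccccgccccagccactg
Cytl1 held 2 ETS and 2 KLF matches, Bmx 1 RBPJ and 1 ETS match, Efna5 3 KLF matches, and Gkn3 none. Of 32851 such windows in the RefSeq table, 21.6% held TGGGAA, 25.7% CAGGAA, 10.7% ACAATG and 52.0% CACCC, in either orientation. Of 20 arterial identity genes 15 were matched to the table, and 4 held TGGGAA, 6 CAGGAA, 1 ACAATG and 9 CACCC in at least 1 window, where the shares over all 27025 genes were 24.1%, 28.3%, 12.2% and 54.5%. Of the 15 highest genes of the Z/Z ranking 12 were matched, and 7, 4, 1 and 10 held these motifs. For the ranking of all 4 libraries 13 of 15 were matched, and 2, 3, 1 and 9 held them. No test was made of these counts. A match is a description of letters in this window and not a binding site.

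The comparison of genotypes asks how arterial cells differ where Foxn1 is reduced in the epithelium. It rested on 3 WT cells in 2 libraries. No gene passed an adjusted p of 0.05 in edgeR's quasi-likelihood test (0 of 3228 higher and 0 lower in Z/Z). An unadjusted p under 0.05 was reached by 348 genes (10.8%), 251 of them higher (7.78%) and 97 lower (3%). In DESeq2, 1 gene was higher, Hspb1, and 6 were lower, Sh2d4b, Cramp1l, Grk5, Zdhhc14, Fry and Pip5k1a, named here after their values were seen. The libraries of the groups did not overlap for 887 genes that were higher in Z/Z (27.5%) and 484 that were lower (15%). Leaving out WT 1 gave 331 higher and 164 lower genes, leaving out WT 2 gave 22 and 19, and leaving out cells with at least 3 smooth muscle or pericyte UMIs, a setting chosen after seeing the data that removed WT 1, gave 280 and 114, each with a lone WT library assumed to vary like the Z/Z libraries. In simulated data of this size, the test found 54% of genes changed 16-fold and 13% of those changed 4-fold, so most 4-fold differences were missed there. Of 100 genes changed 16-fold only 55 passed the filter on low counts, and of 100 changed 4-fold 81 did. The simulation gave all genes the same dispersion and did not model WT sums of so few cells, so the rates for these data may differ. The median log2 fold change of all genes was 0.37, and 0.16 when libraries were scaled by total counts alone.

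For the genes nearest to the threshold, values only are given. Cytl1 had 0, 0, 466 and 362 CPM in the arterial sums of WT 1, WT 2, Z/Z 1 and Z/Z 2 (adjusted p = 0.435, edgeR). Slc8a1 had 0, 0, 338 and 362 CPM, and Eif3a, a translation factor gene, 0, 0, 396 and 288 CPM. Both had an adjusted p of 0.435 in edgeR. The WT sums came from 1 and 2 cells, and Cytl1 was carried by a minority of the Z/Z arterial cells. A count of 0 in so few cells therefore sets no minimum fold. Mgp had 739, 59.5, 3068 and 4410.3 CPM, which gave 3.50 ± 0.96 (SE) on the log2 scale, with the same adjusted p from edgeR. Eln had 73.9, 0, 444 and 464 CPM, Mt1 73.9, 0, 1692 and 492 CPM and Rtn4, a membrane protein of the endoplasmic reticulum, 73.9, 0, 591 and 587 CPM, each with 1 UMI in WT. Csmd1 had 0, 59.5, 313 and 1154 CPM, carried by 5 and 4 cells of the Z/Z libraries. Z/Z values exceeded WT values in these 8 genes, which the rule that named them required.

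Among genes lower in Z/Z with at least 10 UMIs in each WT sum, Fry had 1035, 1964, 233 and 320.0 CPM, a log2 fold change of -2.24 ± 0.65 (SE) with an adjusted p of 0.443 in edgeR. Grk5, a kinase of G protein-coupled receptors, had 1183, 774, 233 and 222 CPM, a log2 fold change of -1.86 ± 0.55 (SE) with the same adjusted p in edgeR. Of the rest, mt-Nd5, Apbb2, Fryl, Nfib and Zfp36l1 had adjusted p of 0.538 to 0.631 in edgeR, and Cd36, a gate gene, is shown as a value with no test. Fryl, a relative of Fry, had 739, 2143, 447 and 689 CPM. The Z/Z libraries lay close to each other in these genes, and the WT libraries were wider apart.

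**Figure D4:**
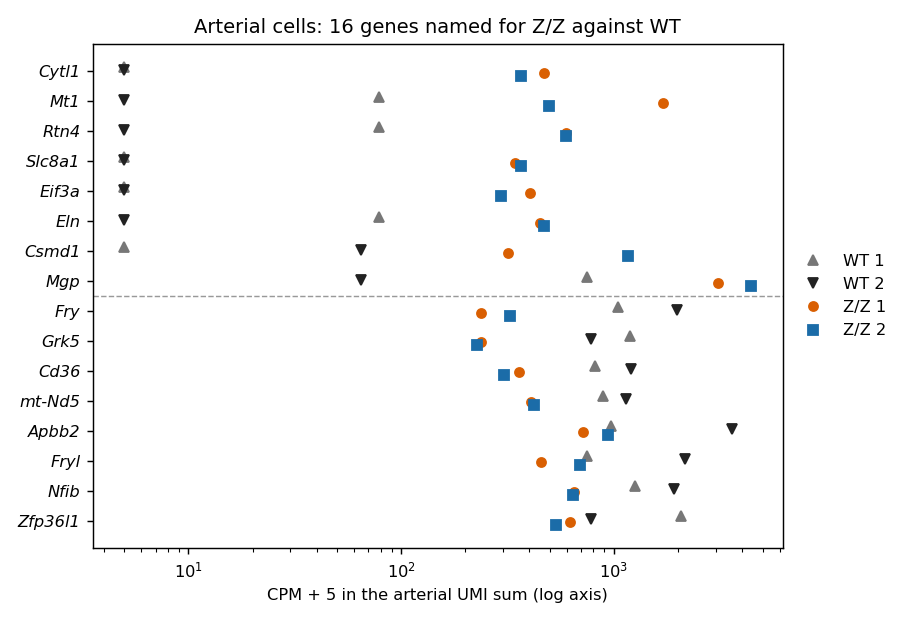
Arterial levels of 16 genes in WT 1 (grey triangles up), WT 2 (black triangles down), Z/Z 1 (orange circles) and Z/Z 2 (blue squares), as CPM + 5 on a logarithmic axis, with genes higher in Z/Z above the dashed line and genes lower in Z/Z below it. The libraries of a gene do not overlap between genotypes because the naming rule required it. None of the 16 genes had an adjusted p under 0.05 in the main edgeR test. Cd36 is a gate gene and is shown as a value only.

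By list, the arterial identity genes had 3 of 17 tested members higher and 0 lower at an unadjusted p under 0.05, namely Cytl1, Mgp and Slc6a6, with a median log2 fold change of 0.67. Over all genes tested, 7.78% were higher and 3% lower by this measure, and the median was 0.37. Other members were on either side. Bmx had 296, 238, 195 and 267 CPM in WT 1, WT 2, Z/Z 1 and Z/Z 2, Fbln5 887, 1131, 520.5 and 703 CPM and Vegfc 443, 1667, 428 and 415 CPM. For Notch genes 9 were tested, with 1 higher (Rbpj) and 1 lower (Dll1) at an unadjusted p under 0.05, and a median of -0.15. For elastic and basement membrane genes 13 were tested, with 4 higher (Eln, Mgp, Col4a2 and Lamc1) and 0 lower. Flow response genes had 0 higher and 1 lower of 12, Gja1 with 1922, 59.5, 156 and 179 CPM, where the WT values differed more from each other than from the Z/Z values. None of these had an adjusted p under 0.05 in edgeR.

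The difference between genotypes was compared between classes of vessel with an interaction term. Between arterial and capillary cells the difference passed an adjusted p of 0.05 in edgeR for 29 of 5986 genes (0.484%), 24 with a larger Z/Z over WT ratio in arterial cells (0.401%) and 5 with a smaller one (0.0835%). The 24 include Sema3g, a gene of the arterial gate, which is not read as a result. With total counts in place of TMM factors the split was 3 and 9, and in DESeq2 it was 0 in all, with 648 genes at an unadjusted p under 0.05 in edgeR. The median over all genes was 0.85 with TMM factors and 0.22 with total counts, so values near these are the level of the comparison as a whole.

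Thsd7a, a matrix-associated membrane protein gene, had 0, 238, 239 and 433 CPM in arterial cells of WT 1, WT 2, Z/Z 1 and Z/Z 2, and 239, 570.3, 69.5 and 59.4 CPM in capillary cells. The log2 difference of responses was 4.70 ± 0.77 (SE) with an adjusted p of 0.00023 in edgeR. Eln had 73.9, 0, 444 and 464 CPM in arterial and 81.3, 132, 41.1 and 39.2 CPM in capillary cells, a difference of 5.78 ± 1.07 (SE) with an adjusted p of 0.00202 in edgeR. In both genes the capillary values of Z/Z lay below both WT values, and the arterial values did not. Casp4, Slc6a6 and the cadherin gene Cdh13 had differences of 3.77, 4.21 and 3.78, each with an adjusted p of 0.0171 in edgeR. Cdh13 had 222, 179, 827 and 999 CPM in arterial and 1218, 1371, 711 and 628 CPM in capillary cells. Mgp was also among the 29, with a difference of 3.60 ± 0.89 (SE) and an adjusted p of 0.0298 in edgeR. Fn1, Rtn4 and Eif3a passed as well, with adjusted p of 0.0243, 0.0429 and 0.0289 in edgeR, and these 4 genes were picked out after their values were seen. The number of calls fell when either Z/Z library was left out and rose when either WT library was. Each of these fits left a lone library in its genotype, with no spread of its own. The counts therefore do not show which calls depend on a given library.

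Between arterial and venous cells 17 of 5505 genes differed (0.309%) in edgeR, 9 with a larger (0.163%) and 8 with a smaller Z/Z over WT ratio in arterial cells (0.145%). With total counts these were 0 and 4, and the median over all genes was 0.58 with TMM factors and 0.06 with total counts. DESeq2 called 1 gene, Ifit2, and 460 genes had an unadjusted p under 0.05 in edgeR. Ifit2, an interferon-induced gene, had 1109, 179, 63.9 and 98.5 CPM in arterial and 52.6, 0, 184 and 199.9 CPM in venous cells, a difference of -5.08 ± 0.88 (SE) with an adjusted p of 2.87e-05 in edgeR. Vcl, vinculin, had 739, 0, 406 and 331 CPM in arterial and 1776, 4152, 415 and 377 CPM in venous cells, a difference of 3.42 ± 0.74 (SE) with an adjusted p of 0.00383 in edgeR. Its venous WT values lay above both Z/Z values, and its arterial WT values lay on either side of them. The venous sums came from 20 cells in WT 1 and 3 in WT 2. Without WT 1 the WT side of the fit therefore held 2 arterial and 3 venous cells. Acta2, Rgs5 and Gm13889 had 961, 0, 252 and 24.6, 1626, 59.5, 377 and 49.2 and 665, 0, 12.8 and 21.1 CPM in arterial cells, with differences of -6.31, -5.76 and -6.75. The only WT 1 cell, which held smooth muscle and pericyte UMIs, carried most of the WT UMIs of these genes, and without WT 1 the differences were 0.41, -5.02 and 2.37. Cxcl1 had 1699.9, 119, 179 and 113 CPM, a difference of -3.67 ± 0.83 (SE) with an adjusted p of 0.00944 in edgeR. Of these 6 genes only Vcl was still called without WT 1, where Ifit2 had an adjusted p of 0.162 and Cxcl1 of 0.498 in edgeR. None of the 6 was called without WT 2, with adjusted p of 0.0529 for Ifit2 and 0.291 for Vcl, or without either Z/Z library. In all, 61 genes were called without WT 1, 2 without WT 2 and 0 without either Z/Z library.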

How the data were processed

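The authors sorted CD45-negative thymic cells, made droplet 3′ libraries and processed them with Cell Ranger (version 7.0.1 in the header of the matrices) on GRCm38.p5 (mm10). The deposited matrices hold UMI counts per gene and barcode, not normalised, for 32285 features. The deposited metrics files give the percentage of sequencing saturation, 88.2%, 95.2%, 85.8% and 65.2% in WT 1, WT 2, Z/Z 1 and Z/Z 2. The labels give both sexes for these mice, and the labels and the study's methods name different kit chemistries, which was not resolved.

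From these counts, 98 ribosomal protein and haemoglobin features were left out and UMIs were summed per library and class. Sums were tested with edgeR 4.0.16 in R 4.3.3 (TMM factors, filterByExpr, two-sided quasi-likelihood F test, Benjamini-Hochberg adjusted p under 0.05 over all genes tested), with genotype as the only term. The interaction fit held library, class and class by genotype. DESeq2 1.42.0 was an alternative. Doublet scores came from scanpy 1.11.5. Its automatic threshold was not used, so the 3.9% of cells with the highest scores were left out only as an alternative. Cells were thinned to 2000 UMIs where stated, and droplets with at most 100 UMIs stood for free RNA. Limits for a count of 0 used 3 counts. The tests were checked on simulated data. Gene coordinates are from GENCODE and upstream sequences from the RefSeq table.

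Members and gene lists were chosen with earlier results of these data known. Genes were named by 4 rules. For genotype, with none past the threshold, they were the 8 per direction with the smallest unadjusted p among those whose libraries did not overlap and with at least 10 UMIs in each library of the higher group. For classes they were the 15 highest and 10 lowest by the smaller log2 ratio. For interactions they were the 6 with the smallest p in each fit. The members of the lists followed. Alternatives changed the limits on cells, the gates, the scaling, the filter, the tool and the libraries used.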

Additional observations from a re-analysis of the deposited data

Results flagged for a closer look

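For 12 genes the interaction test in edgeR gave an adjusted p under 0.05 for the difference of responses between arterial cells and another class. In DESeq2 only Ifit2 of them was called. Between arterial and capillary cells the differences of log2 responses were 4.70 for Thsd7a, 5.78 for Eln, 4.30 for Sema3g, 3.77 for Casp4, 4.21 for Slc6a6 and 3.78 for Cdh13. Sema3g helped to choose the arterial cells, so its value is a description. Between arterial and venous cells they were -5.08 for Ifit2, -6.75 for Gm13889, -6.31 for Acta2, -5.76 for Rgs5, 3.42 for Vcl and -3.67 for Cxcl1. The WT arterial values behind all 12 come from 3 cells, and those of WT 1 from a cell that also held smooth muscle and pericyte UMIs. The WT venous values come from 20 cells in WT 1 and 3 in WT 2. Without WT 1 the differences of Acta2 and Gm13889 changed sign.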

How the results depend on the processing

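The precision of every genotype value was limited by 3 WT arterial cells. The difference in arterial share, -0.116 points, turned to 0.291 with more than 500 genes per cell, to 1.14 with other-lineage UMIs only required to be fewer than endothelial UMIs, and to 0.678 without cells with 3 or more smooth muscle or pericyte UMIs. The last 2 settings were chosen after seeing the data. Leaving out 1 library gave -4.57 to 4.33 points, with 0.0161 without Z/Z 1. Genes higher in Z/Z numbered 280 without smooth muscle or pericyte UMIs, 1 (Mgp) with cells thinned to 2000 UMIs, 1 in DESeq2, and 0 to 331 with 1 library left out. Genes lower in Z/Z numbered 1 (Sh2d4b) without barcodes found in more than 1 library, 114 without smooth muscle or pericyte UMIs, 3 (Dennd1a, Prpf4b and Btbd9) when thinned, 6 in DESeq2, and 0 to 164 with 1 library left out.

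Genes whose response differed between arterial and capillary cells, 29, numbered 49 without the highest doublet scores, 1 (S100a4) with the looser limit on other lineages, 241 without smooth muscle or pericyte UMIs, 0 in DESeq2, 12 with total counts, 16 without the filter on low counts and 0 to 604 with 1 library left out. For arterial and venous cells, 17, they numbered 11 with more than 500 genes, 9 with at least 3 gate UMIs, 5 without shared barcodes, 5 with the looser limit, 64 without smooth muscle or pericyte UMIs, 0 when thinned, 1 in DESeq2, 6 with no filter, 4 with total counts and 0 to 61 with 1 library left out. Of the class counts, 144 each, the lower one was 230 when thinned. With a single Z/Z library, where only that library had to pass, they were 290 to 298 and 283 to 314.

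Log2 values that turned were Eln in Z/Z over WT with the looser limit (-0.32), Zfp36l1 when thinned (0.37) and with 1 library left out (-1.37 to 0.015), Apbb2 (-1.68 to 0.26) and Fryl (-1.48 to 0.099) with 1 library left out, Heyl in arterial over capillary cells without the highest doublet scores (-0.53) and Lfng in arterial over venous cells when thinned (-0.021). Between arterial and venous responses, Gm13889 turned without smooth muscle or pericyte UMIs (1.74) and spanned -7.07 to 2.37 with 1 library left out, and Acta2 spanned -7.31 to 0.41. The cause was not tested in any of these. Of the other values of named genes, 214 of Z/Z over WT and 116 of the differences of response kept direction and side of the threshold, 36 of the former passed it and 70 of the latter no longer did.

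With the replicate number as a replicate block, 0 genes were higher and 0 lower and 103 had an unadjusted p under 0.05. Same-numbered libraries correlated at 0.097 over 3228 genes in their deviations from the group means. The WT deviations set 1 cell against 2, so this value cannot show whether the numbers are pairs. The main fit did not take them as pairs.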
